A study of Mus musculus with 16 samples.

Results

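D10 T cells, a fast-growing variant of a mouse Th2 helper T cell clone, were pre-incubated for 1 h with 10 µM Akti1/2, an allosteric inhibitor of the kinases Akt1 and Akt2, and then stimulated through CD3 and CD28 for 12 h. The response described here is the change in each gene from the 2 arrays of Akti1/2-treated cells at 0 h to the 2 arrays of Akti1/2-treated cells at 12 h, which are 4 of the 16 arrays of the series. Every gene of the intensity table that exceeded the negative control beads on 2 or more of the 16 arrays, by a detection p below 0.01, was taken, which left 7395 of 18138 genes. Both groups carried 10 µM Akti1/2, and all cells grew with recombinant human IL-2. The 0 h group had the inhibitor for the 1 h pre-incubation only and was not stimulated, whereas the 12 h group had it for the pre-incubation and the 12 h of stimulation with biotinylated antibodies and streptavidin. No array of unstimulated cells kept 12 h with Akti1/2 was analysed here, so the stimulation and the longer exposure to the inhibitor cannot be told apart. The control groups at 0 h and 12 h (2 arrays each) had no Akti1/2, and the methods call them untreated while the results text names a solvent. D10 is 1 cell line, and whether the duplicates came from separate cultures is not given in the sources used here, so the p-values measure only the spread between these arrays.

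Ligation of the T cell receptor, of which CD3 is the signalling part, together with the co-receptor CD28 switches on the transcription factors NF-κB, NFAT and AP-1, and a Th2 cell answers with cytokines such as IL-4, IL-5 and IL-13. Akt is a kinase downstream of PI3 kinase. It phosphorylates FOXO transcription factors, which then leave the nucleus, and it promotes mTOR complex 1, which drives ribosome production, nucleotide and lipid synthesis and restrains lysosomal biogenesis and autophagy. The integrated stress response is a separate program in which kinases that sense amino acid shortage, unfolded protein or other stress phosphorylate the translation factor eIF2, so that the transcription factor ATF4 is made and turns on genes for amino acid supply, Ddit3 (CHOP) and Trib3.

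The 4 arrays held 6463 to 6719 genes above background, with median intensities of 134.8 to 145.2. The log2 intensities of the duplicates correlated at 0.993 at each of these times, and their median absolute difference was 0.128 at 0 h and 0.144 at 12 h. Among 12 helper and Th2 cell genes, 11 were above background on at least 1 of the 4 arrays, and the exception was Thy1. None of 6 B cell genes and none of 8 genes of CD8 T and NK cells exceeded the background on these arrays. Of 16 macrophage and dendritic cell genes, only Cd68 did, and the summed intensity of that list was 2071 and 2087.9 at 0 h and 2277 and 2141.6 at 12 h. Fcer1a and Mcpt8 were the 2 of 7 mast cell and basophil genes above background, and the summed intensity of their list was 4750.2 and 3644.1 at 0 h and 2542.5 and 2109.7 at 12 h. Krt8 was the 1 of 7 fibroblast and epithelial genes. Their part in the results below was not tested. In bulk RNA, fewer cells expressing a gene and less RNA per cell cannot be told apart.

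Between 0 h and 12 h in the presence of Akti1/2, 3288 of the 7395 genes (44.5%) differed at an adjusted p under 0.05 in limma with Benjamini-Hochberg adjustment. Of these, 1563 (21.1% of the genes tested) were higher at 12 h and 1725 (23.3%) were lower. All 3288 changed in the same direction on both chips, as did 80.4% of all genes tested. The chips hold the same 4 arrays that gave the calls, so this is no separate replication. With arrays scaled to the same mean, 1724 were higher and 1504 lower, so which direction had more calls depends on the scaling. Changes of more than 2-fold were called upward in 431 genes and downward in 356, and changes of more than 4-fold in 85 and 30. The median SE of a log2 change was 0.15. In control cells, on 4 other arrays, 2055 genes (27.8%) differed between 0 h and 12 h, 939 upward (12.7%) and 1116 downward (15.1%). The genes called with and without Akti1/2 overlapped in 1186, which is 36.1% of the calls with Akti1/2 and 57.7% of the control calls, and 370 of the 1186 moved in opposite directions. Across the 7395 genes, the log2 changes with and without Akti1/2 had a Pearson r of 0.38 and a Spearman rho of 0.19, which is a description across genes and no test.

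**Figure D1:**
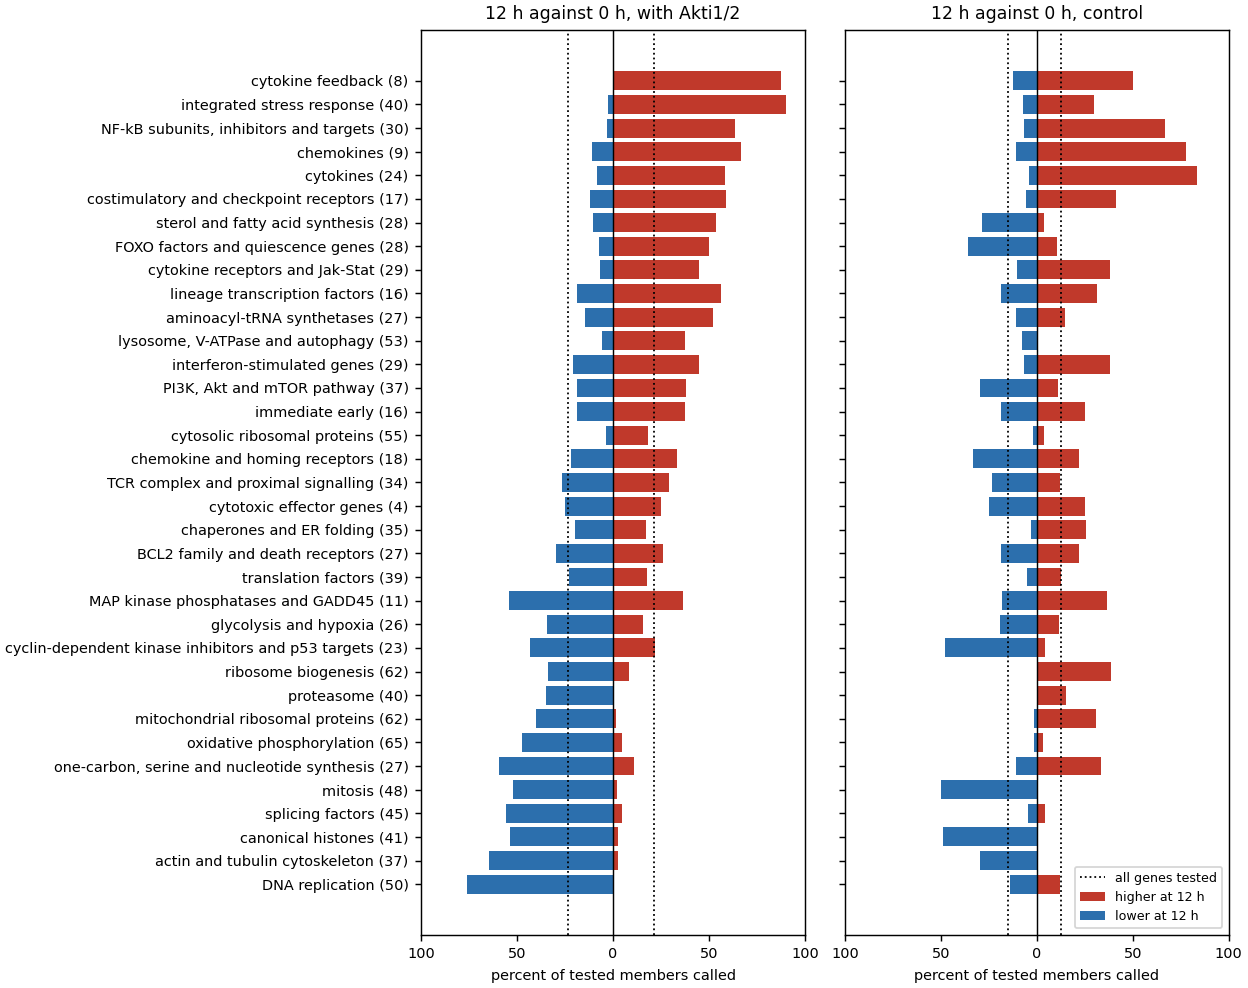
Percent of the tested members of 35 gene lists (number tested in brackets) that were called higher (red, to the right) or lower (blue, to the left) at 12 h than at 0 h, with Akti1/2 on the left and in control cells on the right, limma adjusted p under 0.05. Dotted lines give the percent over all 7395 genes (21.1% and 23.3% with Akti1/2, 12.7% and 15.1% in control cells). Cytokine feedback, the integrated stress response (90.0% higher) and NF-kB genes lie at the top with Akti1/2, and histones, the cytoskeleton and DNA replication (76.0% lower) at the bottom.

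**Figure D2:**
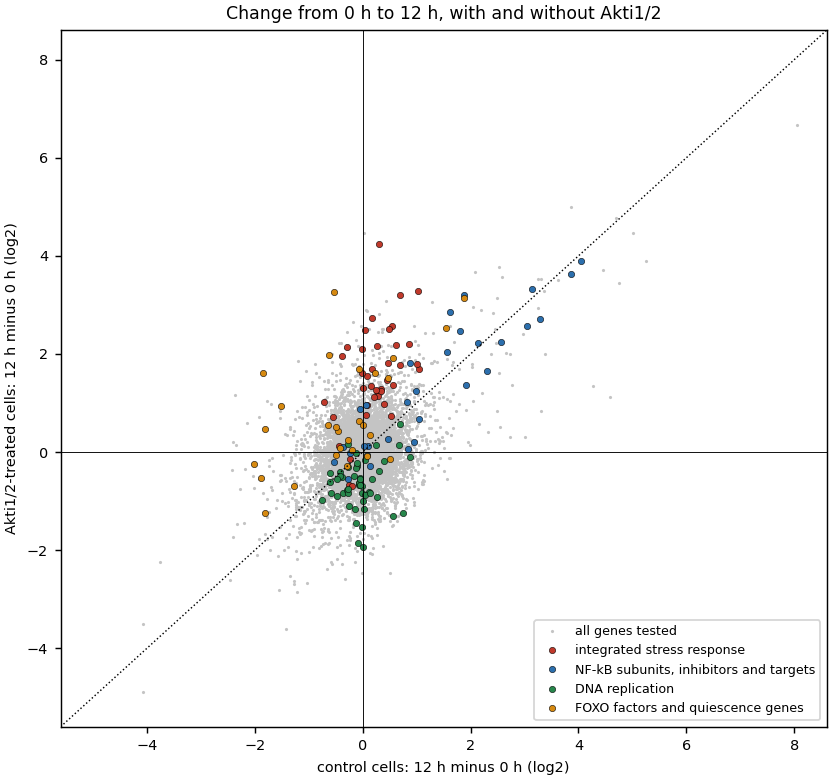
Log2 change from 0 h to 12 h of each of the 7395 genes in control cells (horizontal) and in Akti1/2-treated cells (vertical), with the members of 4 lists coloured and equality as a dotted line. Most integrated stress response genes (red) lie above the line, NF-kB genes (blue) near it, FOXO and quiescence genes (orange) mostly above it, and most DNA replication genes (green) below the line and below 0.

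Genes of the integrated stress response rose together. Of 40 tested members (52 on the array), 36 were higher at 12 h with Akti1/2 and 1, the glutamine transporter Slc1a5, was lower, with a median log2 change of 1.51 against -0.03 over all genes. In control cells 12 rose and 3 fell, with a median of 0.25. The fall of Slc1a5 with Akti1/2 was no longer called when single arrays were left out. Trib3, a pseudokinase induced by ATF4 and known to bind Akt, read 6.82 and 6.94 at 0 h and 11.12 and 11.13 at 12 h. Its log2 change was 4.24 (SE 0.13, adjusted p = 4.7e-10), and the 12 h arrays lay far above the 0 h arrays. In control cells the change of Trib3 was 0.30 (adjusted p = 0.1). Ddit3, the transcription factor CHOP, read 8.28 and 8.25 at 0 h and 11.03 and 10.99 at 12 h, a change of 2.74 (SE 0.10, adjusted p = 3.1e-09), against 0.17 in control cells. Nupr1, a small stress-induced nuclear protein, was above background on both 12 h arrays (8.58 and 8.47) and on neither 0 h array, and was at least 7.33-fold higher. This bound sets the 12 h mean against the dimmest signals that pass as above background at 0 h, as do all later bounds for rises. Bounds for falls set the 0 h mean against the dimmest such signals at 12 h. All bounds are on the background-corrected scale. Slc1a4, a transporter of alanine, serine and cysteine, went the same way and was at least 5.66-fold higher. Cebpb, a transcription factor of the C/EBP family, read 10.01 and 9.99 at 0 h and 12.71 and 12.45 at 12 h, and Myd116 (Ppp1r15a, the phosphatase subunit that reverses eIF2 phosphorylation) rose by 2.51 on the log2 scale (adjusted p = 4.4e-07). Atf4 itself rose by 1.25 (adjusted p = 4.4e-06), Chac1, which degrades glutathione, by 2.15, and Asns, which makes asparagine, by 1.82.

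**Figure D3:**
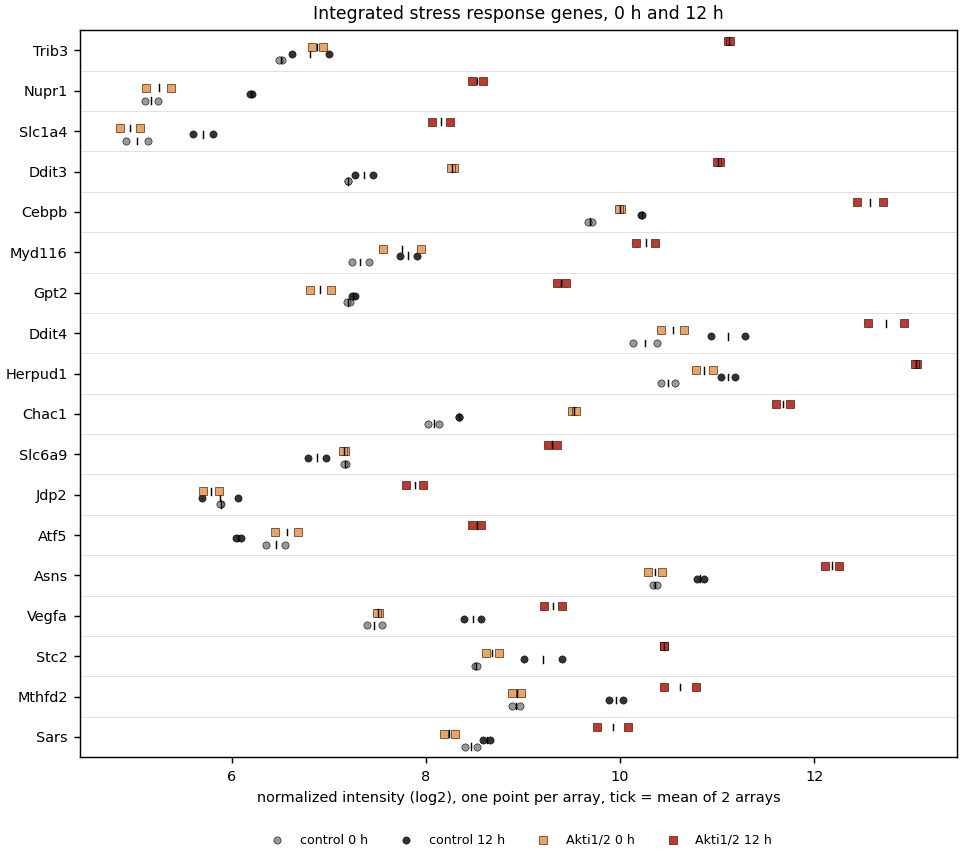
Normalized log2 intensity on each of the 2 arrays of control cells (circles) and Akti1/2-treated cells (squares) at 0 h and 12 h for the 18 integrated stress response genes with the largest called rises, with a tick at each mean. In all 18 genes both Akti1/2 12 h arrays (red) lie above the other 6 arrays.

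Some of these genes already stood apart at 0 h, after the 1 h pre-incubation. On the unstimulated control arrays Ddit3 read 7.19 and 7.20, and on the Akti1/2 arrays 8.28 and 8.25. The same arrays gave 8.02 and 8.13 and then 9.51 and 9.54 for Chac1, and 6.52 and 6.49 and then 6.82 and 6.94 for Trib3. These differences at 0 h were not tested. By 2 h of stimulation with Akti1/2 the log2 change was 2.87 for Trib3 and 1.63 for Ddit3, and by 6 h it was 3.45 and 2.38.

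Promoter sequences are shown for stress response genes because a short word recurs in some of them. RefSeq (GRCm38.p6) gave windows of 250 bases before and 50 after the annotated start for 33 of the 40 tested members, and 12 of them held TGATGNAA on either strand, the core of the C/EBP-ATF response element to which ATF4 binds. That was 36.4% of these genes, against 2.93% of 5491 tested genes with a window and 4.51% of 27025 genes in all. Of the 31 members with a window that rose, 11 held it (35.5%), so most did not. The list holds known targets of ATF4 and CHOP, so its share against all genes cannot show a link to the rises. A match is a description of the letters and not a shown binding site, and Trib3 and Ddit3 had no match in this window. In each stretch below the capitals mark the word, which stands as its reverse complement in Nupr1, Herpud1, Chac1 and Aars, and each stretch is given 5′ to 3′ on the strand of its gene.
Nupr1 (chr7:126625547-126625606, minus strand, GRCm38.p6): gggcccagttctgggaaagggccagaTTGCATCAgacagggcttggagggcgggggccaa
Herpud1 (chr8:94386291-94386350, plus strand, GRCm38.p6): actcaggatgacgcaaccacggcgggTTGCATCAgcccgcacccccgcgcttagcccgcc
Chac1 (chr2:119351023-119351082, plus strand, GRCm38.p6): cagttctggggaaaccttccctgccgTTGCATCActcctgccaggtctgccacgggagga
Jdp2 (chr12:85599356-85599415, plus strand, GRCm38.p6): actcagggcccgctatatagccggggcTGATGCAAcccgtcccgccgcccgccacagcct
Asns (chr6:7693210-7693269, minus strand, GRCm38.p6): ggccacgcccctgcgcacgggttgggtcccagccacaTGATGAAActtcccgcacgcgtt
Aars (chr8:111033704-111033763, plus strand, GRCm38.p6): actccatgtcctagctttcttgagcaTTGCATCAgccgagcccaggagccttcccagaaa
The rise was 2.18 on the log2 scale for Herpud1, which takes part in the degradation of proteins of the endoplasmic reticulum, 2.09 for Jdp2, a leucine zipper repressor, and 1.35 for Aars, the alanyl-tRNA synthetase.

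Of 27 tested aminoacyl-tRNA synthetases, which load amino acids on transfer RNA, 14 rose and 4 fell with Akti1/2 (median 0.38), and 4 rose and 3 fell in control cells. Several of them also stand in the stress response list. The falls of Kars, Farsa and Rars2 were no longer called when single arrays were left out. Sars, for serine, read 8.29 and 8.18 at 0 h and 10.09 and 9.76 at 12 h and rose by 1.68 (adjusted p = 5.8e-06). Iars, for isoleucine, rose by 1.28, and Wars, for tryptophan, by 1.27, while the mitochondrial Mars2 fell by 1.38. Within one-carbon, serine and nucleotide synthesis (27 tested), Mthfd2, Shmt2 and Phgdh of the serine and mitochondrial folate route were the 3 members that rose, by 1.68, 1.25 and 0.97. The other 16 called members fell, and the list median was -0.52. They included Mat2a, which makes S-adenosylmethionine (10.04 and 10.15 at 0 h and 7.85 and 8.46 at 12 h). Falls were also called for the purine and pyrimidine enzymes Ppat (-1.37), Gart (-1.31) and Umps (-1.14). In control cells 9 members of this list rose and 3 fell, and the response differed with Akti1/2 upward in 4 members and downward in 18.

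NF-κB genes rose with and without Akti1/2. Of 30 tested members of this list, 19 were higher and 1 was lower at 12 h with Akti1/2 (median 1.13), and 20 were higher and 2 lower in control cells (median 0.97). The response differed with Akti1/2 in 8 of the 30 members, upward in 6 (20%) and downward in 2 (6.67%). Over all genes these shares were 16.3% and 16.2%, and 32.5% in either direction, so the list did not exceed all genes in this count. Nfkbia, the inhibitor IκBα that NF-κB itself induces, read 8.33 and 8.34 at 0 h and 12.19 and 12.28 at 12 h, a change of 3.89 (SE 0.17, adjusted p = 8.3e-09) against 4.05 in control cells. Nfkbid, an atypical nuclear inhibitor, read 7.25 and 7.50 at 0 h and 10.98 and 11.02 at 12 h, a change of 3.63 against 3.86. For both genes the 2 groups were far apart and the difference in response was not called (adjusted p = 0.67 and 0.46). The subunit gene Relb read 6.17 and 6.22 at 0 h and 9.40 and 9.40 at 12 h and rose more with Akti1/2 (3.21) than without (1.89), a difference of 1.32 (adjusted p = 0.00093). Nfkb2, the partner of RelB, rose by 2.86 against 1.61 (adjusted p of the difference = 0.028), and this difference was no longer called in 7 alternatives, 6 of which left out 1 array (any of the 8 but replicate 1 of control 0 h or of Akti1/2 0 h), with an adjusted p of up to 0.089. Rela rose by 0.87 against -0.06 and Nfkb1 by 1.24 against 0.98. The feedback deubiquitinase Tnfaip3 rose by 2.22 and the adaptor Traf1 by 3.32. Bcl2a1d and Bcl2a1c, survival genes with near-identical copies that one probe may not tell apart, rose by 2.71 and 1.66.

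The same windows of NF-κB genes were searched on both strands for a form of the κB site, GGG and TTCC with 3 bases of any kind between them. It was present in 11 of 23 tested members with a window (47.8%) and in 7 of the 15 that rose (46.7%), against 7.39% of the tested genes and 6.31% of all genes. The share among the members that rose was no higher than among all tested members. The list holds well known NF-κB target genes, so its share against all genes cannot show a link to the rises. A match is a description of the letters and not a shown binding site. The stretches of Nfkbia, Nfkbid, Rel and Nfkbie are printed with the match in capitals, as the reverse complement in all but Nfkbie.
Nfkbia (chr12:55492648-55492707, minus strand, GRCm38.p6): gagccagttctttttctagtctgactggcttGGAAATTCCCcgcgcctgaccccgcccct
Nfkbid (chr7:30422199-30422258, plus strand, GRCm38.p6): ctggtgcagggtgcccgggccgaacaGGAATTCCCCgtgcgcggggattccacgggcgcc
Rel (chr11:23771027-23771086, minus strand, GRCm38.p6): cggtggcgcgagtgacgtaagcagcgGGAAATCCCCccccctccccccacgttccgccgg
Nfkbie (chr17:45555568-45555627, plus strand, GRCm38.p6): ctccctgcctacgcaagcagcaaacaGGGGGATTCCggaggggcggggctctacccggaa
Rel, the lymphoid subunit, was above background on both 12 h arrays and neither 0 h array and was at least 2.57-fold higher. Nfkbie, the inhibitor IκBε, read 5.89 and 5.71 at 0 h and 7.24 and 7.08 at 12 h.

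Of 24 tested cytokine genes (37 on the array), 14 were higher and 2 lower at 12 h with Akti1/2, with a median log2 change of 0.83, or 0.57 with genes at their bound. In control cells 20 were higher and 1 lower, with a median of 1.92, and by the interaction test the response was lower with Akti1/2 in 14 genes and higher in 3. Il3, a growth factor for blood progenitors, was above background on neither 0 h array and read 11.05 and 11.70 at 12 h, at least 52.8-fold higher. Its fitted log2 change was 6.67, and 4.37 without background correction. Il10, an anti-inflammatory cytokine, read 6.29 and 6.6 at 0 h and 10.99 and 10.82 at 12 h, a change of 4.46 (SE 0.21) against 5.02 without inhibitor, and the difference was not called (adjusted p = 0.18). Il4, the defining Th2 cytokine, read 10.44 and 10.24 at 0 h and 12.31 and 12.09 at 12 h and rose by 1.86 (adjusted p = 7.1e-07), against 1.31 in control cells (adjusted p of the difference = 0.052). Il5, which sustains eosinophils, read 8.35 and 8.39 at 0 h and 9.22 and 9.78 at 12 h and rose by 1.13 (adjusted p = 0.0035), against 4.59 in control cells, a difference of -3.46 (adjusted p = 3.6e-05). Csf2 (GM-CSF) read 5.89 and 6.15 at 0 h and 9.11 and 9.83 at 12 h, a rise of 3.45 against 4.75. Tnf read 6.08 and 6.58 at 0 h and 7.30 and 8.08 at 12 h, a rise of 1.36 against 2.77.

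Il13, another Th2 cytokine, read 5.8 and 5.93 at 0 h and 6.54 and 7.88 at 12 h. Its 12 h arrays were 1.34 log2 units apart, while both lay above the 0 h arrays. The rise of 1.34 was called (adjusted p = 0.024), but the adjusted p became 0.26 without 12 h replicate 2 (log2 0.67), 0.097 without 0 h replicate 1 (1.28) and 0.071 without 0 h replicate 2 (1.41). In control cells Il13 rose by 4.26, and the difference of -2.92 was called (adjusted p = 0.0033). Tnfsf10 (TRAIL) was at least 1.17-fold higher, and Tnfsf14 (LIGHT), above background on 1 of the 2 arrays at 0 h, rose by 0.83 against 3.31 (adjusted p of the difference = 1.2e-05). Ebi3 was called but was not above background on any of the 4 arrays. Lta (lymphotoxin), above background at 12 h only, was called at 0.51, with an adjusted p of 0.31 without 0 h replicate 2, 0.13 without 12 h replicate 1 and 0.13 without 12 h replicate 2. Ltb, Vegfa and Il16 rose by 2.24, 1.80 and 1.77, and the response of Vegfa and Il16 was larger with Akti1/2 than without (differences of 0.79 and 1.94). Tnfsf11 (RANKL) fell by 1.02 while it rose by 0.58 in control cells, and Lif was above background at 0 h only and lower at 12 h. Areg, Csf1, Il24, Il6, Mif, Osm, Tgfb1 and Tnfsf9 were not called, with log2 changes between -0.35 and 0.57.

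Chemokines gave some of the largest rises of all. Of 30 chemokine genes 9 were tested, and 6 rose and 1 fell with Akti1/2, and 7 rose and 1 fell in control cells. Ccl3, an inflammatory chemokine, read 7.71 and 7.70 at 0 h and 12.55 and 12.85 at 12 h, a change of 5.0 (SE 0.12, adjusted p = 1.1e-10), and rose by 1.14 more than without inhibitor (adjusted p = 0.00047). Ccl4, another inflammatory chemokine, read 10.11 and 10.32 at 0 h and 13.68 and 13.78 at 12 h, a change of 3.51 against 3.62 in control cells. Ccl1, a ligand of the Th2 receptor CCR8, read 6.51 and 6.52 at 0 h and 10.12 and 10.71 at 12 h, a change of 3.90, which was 1.35 below the 5.25 of control cells (adjusted p = 0.0015). In all 3 genes the 12 h arrays lay well above the 0 h arrays. Cxcl2 was above background at 12 h only and at least 5.73-fold higher. Ccl17 fell by 0.84. Ccl5 and Cxcl10 were called at 0.80 and 0.66. The adjusted p of Ccl5 was 0.064 without 0 h replicate 2, and that of Cxcl10 was 0.11 without 0 h replicate 2 and 0.11 without 12 h replicate 2. Ccl25 and Xcl1 were not called (-0.10 and 0.22).

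**Figure D4:**
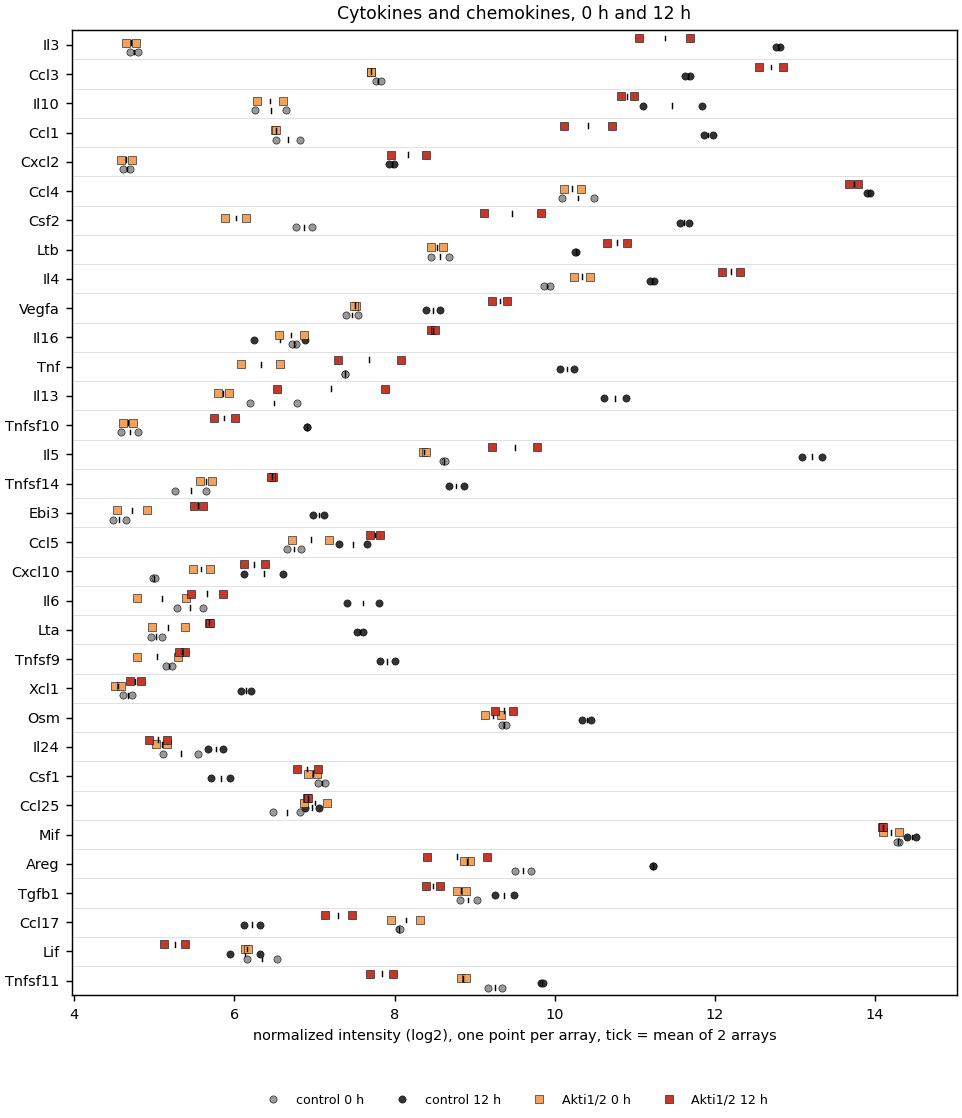
Normalized log2 intensity on each array of control cells (circles) and Akti1/2-treated cells (squares) at 0 h and 12 h for the 24 tested cytokine and 9 tested chemokine genes, ordered by the change with Akti1/2, with a tick at each mean. For Il5 and Il13 the Akti1/2 12 h arrays (red) lie between their 0 h arrays and the control 12 h arrays (black), while for Ccl3, Ltb and Il4 they lie above all other arrays.

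Receptors and surface molecules rose more often than they fell. Of 29 tested cytokine receptor and Jak-Stat genes, 13 rose and 2 fell (median 0.39). The rise of Il2rb and the fall of Il15ra were no longer called when single arrays were left out. Jak2, the kinase of the IL-3 and GM-CSF receptors, read 6.76 and 6.64 at 0 h and 10.20 and 10.33 at 12 h, a change of 3.57 against 2.58 in control cells (difference 0.99, adjusted p = 0.0015). Stat3 rose by 1.88 and Tyk2 by 1.10. Il2ra, the inducible IL-2 receptor chain, read 7.71 and 7.66 at 0 h and 7.78 and 8.42 at 12 h and was not called (adjusted p = 0.16), whereas in control cells it rose by 2.32, a difference of -1.91 (adjusted p = 0.00072). Among 17 tested costimulatory and checkpoint receptors, 10 rose and 2 fell. Ctla4, which restrains CD28 signals, read 9.61 and 9.48 at 0 h and 12.65 and 12.70 at 12 h and rose by 3.13 against 1.87. Cd28 read 9.66 and 10.11 at 0 h and 11.37 and 11.01 at 12 h and rose by 1.31, against -0.01 in control cells (difference 1.32, adjusted p = 0.00078). The early activation marker Cd69 and the checkpoint ligand Cd274 (PD-L1) rose by 2.42 and 2.19, while Cd160, an inhibitory receptor, was at least 3.8-fold lower and not above background at 12 h. Of 18 tested chemokine and homing receptors, 6 rose (33.3%) and 4 fell (22.2%), against 21.1% and 23.3% over all genes. The share that fell was thus near that of all genes. The rise of Cd53 and the falls of Cd44 and Itgb7 were no longer called when single arrays were left out. Cxcr4 rose by 3.09 against 0.43 and Ccr7, a lymph node homing receptor, by 1.92 against 0.56. The adhesion molecule Icam1 rose by 2.23 and the tetraspanin Cd82 by 1.22. All 7 called members of the cytokine feedback list (8 tested) rose, which is 87.5% against 21.1% over all genes. In control cells 4 rose and 1 fell. The rises of Socs4 and Socs7 with Akti1/2 were no longer called when single arrays were left out. Other members that rose were Pim2 (2.02), Socs3 (at least 3.24-fold higher) and Cish (1.04), the last an inhibitor of STAT5 signals.

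In the T cell receptor complex and its proximal signalling, 10 of 34 tested genes rose (29.4%) and 9 fell (26.5%), near the 21.1% and 23.3% over all genes. Cd3e read 11.76 and 11.91 at 0 h and 10.40 and 10.51 at 12 h and fell by 1.38 (adjusted p = 8.8e-07), and Lck, the kinase that phosphorylates CD3, fell by 0.86. Rasgrp1, which activates Ras, rose by 1.54 and Vav1 by 0.81, against 0.52 and 0.04 in control cells. Of 16 tested lineage transcription factors, 9 rose and 3 fell. Gata3, the Th2 lineage factor, read 12.22 and 12.21 at 0 h and 12.46 and 12.40 at 12 h and was not called (adjusted p = 0.16). Batf and Irf4, which act together at T cell activation genes, rose by 3.28 and 2.41, against 3.36 and 2.97. Bhlhb2 (Bhlhe40) rose by 2.96, Hif1a by 0.87, Gfi1 by 0.68 and Stat6, the IL-4 signal transducer, by 0.74. Bcl6 was above background only at 12 h, at least 3.57-fold higher. Satb1, a chromatin organizer, read 10.79 and 10.75 at 0 h and 12.26 and 12.29 at 12 h, a rise of 1.5 where control cells fell by 0.31, and Bach2 rose by 1.06 where control cells fell by 0.70. Id3 fell by 1.18. Id2 and Ets1 were called at -0.95 and -0.34. The adjusted p of Id2 was 0.076 without 0 h replicate 2 and 0.053 without 12 h replicate 2. That of Ets1 was 0.07 without 0 h replicate 1, 0.051 without 0 h replicate 2 and 0.065 without 12 h replicate 1. Ikzf1, Runx1 and Zbtb32 were not called (-0.45, -0.02 and -0.01).

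Among 16 tested immediate early genes 6 rose and 3 fell with Akti1/2, and among 11 MAP kinase phosphatase and GADD45 genes 4 rose and 6 fell. The falls of Dusp14, Gadd45g, Spred1 and Dusp2 were no longer called when single arrays were left out. Egr1, an immediate early zinc finger factor, read 13.10 and 13.05 at 0 h and 7.65 and 8.72 at 12 h and fell by 4.89 (SE 0.29, adjusted p = 8.7e-08), against -4.07 in control cells. On the control arrays it read 13.24 and 12.96 at 0 h. Myc fell by 1.23 with Akti1/2, against -0.16 in control cells (difference -1.07, adjusted p = 0.008). Ier3 read 10.24 and 10.58 at 0 h and 12.56 and 12.25 at 12 h, a rise of 2.00 against 2.73. Klf6 was not called (-0.24, adjusted p = 0.3) where it fell by 2.02 in control cells, a difference of 1.78 (adjusted p = 0.00023). Gadd45b, a stress and NF-κB target, was above background on 1 of the 2 arrays at 0 h and read 5.87 and 5.33 at 0 h and 10.52 and 10.22 at 12 h, a rise of 4.77 against 4.69, and the phosphatase Dusp4 rose by 2.29 against -0.12.

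FOXO factors, their known targets and genes of quiescent lymphocytes rose more often than they fell with Akti1/2, and fell more often in control cells. Of 28 tested members, 14 were higher and 2 lower with Akti1/2 (median 0.50). In control cells 3 were higher and 10 lower (median -0.35), and the response was higher with Akti1/2 in 16 members and lower in 0. Pik3ip1, an inhibitor of PI3 kinase above background on 1 of the 2 arrays at 0 h, read 5.86 and 5.42 at 0 h and 9.12 and 8.69 at 12 h, a rise of 3.26 against -0.53 (difference 3.79, adjusted p = 1.9e-05). Tsc22d3, a glucocorticoid- and FOXO-responsive leucine zipper protein, read 9.65 and 9.54 at 0 h and 11.71 and 11.45 at 12 h, a rise of 1.99 where control cells fell by 0.63. Ypel3, a growth-restraining gene, read 9.51 and 9.68 at 0 h and 11.32 and 11.10 at 12 h and rose by 1.61 where control cells fell by 1.85. Btg1, an antiproliferative gene, read 12.35 and 12.25 at 0 h and 14.02 and 13.97 at 12 h and rose by 1.70 against -0.07. Each of these 4 genes had both 12 h arrays above both 0 h arrays. Klf2, Il7r and S1pr1, known FOXO targets of T cells, were above background on none of the 16 arrays and were not tested.

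Within the PI3 kinase, Akt and mTOR pathway, 14 of 37 tested genes rose and 7 fell (median 0.21), and 4 rose and 11 fell in control cells. After Trib3 and Pik3ip1, Ddit4 (REDD1, an inhibitor of mTOR complex 1) read 10.66 and 10.43 at 0 h and 12.92 and 12.56 at 12 h and rose by 2.19, Eif4ebp1, which holds back cap-dependent translation, rose by 1.55, Tsc1 by 1.5 and Sesn2 by 1.03. The insulin receptor substrate Irs2 rose by 0.94 where control cells fell by 1.52. Mapkap1 and Rhebl1 rose by 0.46 and 0.54. Falls were called for the PI3 kinase subunits Pik3cg (-1.04) and Pik3r1 (-1.39), the lipid phosphatase Inpp5d (-1.41), the kinases Sgk1 (-0.78) and Sgk3 (at least 1.42-fold lower) and 2410008K03Rik (-0.80; Castor1, an arginine sensor). The calls for Gbl, Rheb, Trib2 and Depdc6 had log2 changes of 0.53, 0.49, 0.54 and -0.59 and were lost when single arrays were left out. Depdc6 was above background on 1 of the 4 arrays. The adjusted p was 0.055 for Gbl without 12 h replicate 1, 0.11 to 0.17 for Rheb when any 1 of the 4 arrays was left out, 0.084 and 0.075 for Trib2 without 0 h replicate 1 and 12 h replicate 2, and 0.43, 0.2 and 0.085 for Depdc6 without 0 h replicate 2, 12 h replicate 1 and 12 h replicate 2. No call was made for 4921505C17Rik (Rictor), Akt1s1, Eif4ebp2, Frap1 (Mtor), Gsk3a, Gsk3b, Inpp4b, Pdpk1, Pik3ap1, Pik3ca, Pik3cb, Pik3cd, Pik3r2, Rps6kb2, Trib1 and Tsc2, whose log2 changes lay between -0.69 and 0.37.

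Lysosomal and autophagy genes that moved with Akti1/2 mostly rose. Of 53 tested members, 20 rose and 3 fell with Akti1/2 (median 0.21), and 0 rose and 4 fell in control cells. Sqstm1 (p62), the autophagy receptor, read 10.26 and 10.30 at 0 h and 13.19 and 13.15 at 12 h, a rise of 2.89 (SE 0.12, adjusted p = 4.5e-09) against 0.06. Flcn, a regulator of the lysosomal mTOR complex, rose by 1.55, the membrane protein gene Lamp2 by 1.02 and the proton pump subunit gene Atp6v0d1 by 1.07, against -0.14, 0.03 and -0.51. Gusb, the lysosomal β-glucuronidase, went the other way and read 9.86 and 10.04 at 0 h and 7.49 and 7.91 at 12 h, a change of -2.25 against -0.15 in control cells. Of 28 tested sterol and fatty acid synthesis genes, 15 rose and 3 fell with Akti1/2, and 1 rose and 8 fell in control cells. Elovl5, which lengthens polyunsaturated fatty acids, rose by 1.46, Insig1 by 1.14, Mvd by 1.03 and Fads1 by 0.84, while Elovl6 fell by 1.88.

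DNA replication genes fell together. Of 50 tested members, 38 were lower and 0 higher at 12 h with Akti1/2, with a median of -0.65, against 6 higher and 7 lower in control cells (median -0.07). The response was lower with Akti1/2 in 25 members and higher in 0. Tk1, thymidine kinase, read 8.79 and 8.89 at 0 h and 6.91 and 6.89 at 12 h, a change of -1.94 (adjusted p = 8.7e-08) against 0.01 in control cells. Rrm2, the regulated subunit of ribonucleotide reductase, read 8.94 and 8.80 at 0 h and 6.99 and 7.05 at 12 h, a change of -1.85 against -0.08. Ccnd3, cyclin D3, read 10.24 and 10.38 at 0 h and 8.86 and 8.71 at 12 h, a change of -1.52, and Ccne1 and Ccne2, the cyclins of S phase entry, fell by 1.30 and 1.25 where they rose by 0.57 and 0.75 without inhibitor. The helicase subunit genes Mcm3 and Mcm4 fell by 0.97 and 0.89, against -0.75 and -0.47. Each of the named genes had both 12 h arrays below both 0 h arrays. The E2F word TTTNGCGC stood in 10 of 37 tested members with a promoter window (27.0%) and in 7 of the 28 that fell (25.0%), against 3.28% of tested genes and 1.57% of all genes. The share was no higher among the members that fell than among all tested members. The list was chosen by function and with earlier results known, so its share against all genes cannot show a link to the falls. A match is a description of the letters and not a shown binding site. Stretches of Cdc25a and Mcm6 are printed, with the word in capitals, as spelled in both.
Cdc25a (chr9:109875486-109875545, plus strand, GRCm38.p6): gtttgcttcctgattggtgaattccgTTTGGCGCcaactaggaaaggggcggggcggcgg
Mcm6 (chr1:128359719-128359778, minus strand, GRCm38.p6): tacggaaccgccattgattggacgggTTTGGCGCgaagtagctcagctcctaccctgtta
Cdc25a, a phosphatase that activates cyclin-dependent kinases, fell by 0.81 and Mcm6 by 0.63.

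Canonical histones fell with and without inhibitor. With Akti1/2, 22 of 41 tested histone genes were lower and 1 was higher (median -0.48), and 20 were lower and 0 higher in control cells (median -0.46). Hist1h1c read 12.32 and 12.27 at 0 h and 10.14 and 9.97 at 12 h, a change of -2.24 against -3.75 in control cells (difference 1.51, adjusted p = 2.1e-05). Copies of the same histone are near-identical, so probes may share signal. Mitosis genes fell in 25 of 48 tested and rose in 1, against 24 and 0 in control cells, with the factor Mybl2 at -2.03 and Cdc2a (Cdk1) at -1.04. Among 23 cyclin-dependent kinase inhibitors and p53 targets, 5 rose (21.7%) and 10 fell (43.5%), against 21.1% and 23.3% over all genes. The share that rose was thus near that of all genes. The rises of Bbc3 and Trp53inp1 and the fall of Cdkn2d were no longer called when single arrays were left out. Cdkn1a (p21) read 9.35 and 9.49 at 0 h and 7.63 and 7.37 at 12 h and fell by 1.92, and Sesn3 was at least 2.29-fold higher.

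Mitochondrial ribosomal protein and ribosome biogenesis genes were lower more often than higher at 12 h with Akti1/2, and higher more often than lower without it. Of 62 tested mitochondrial ribosomal protein genes, 25 fell and 1 rose with Akti1/2 (median -0.23), and 1 fell and 19 rose in control cells (median 0.22), with a lower response in 34 and a higher one in 1. Ribosome biogenesis gave 21 falls and 5 rises of 62, against 0 and 24 in control cells, and oxidative phosphorylation 31 falls and 3 rises of 65, against 1 and 2. Nola3 (Nop10), a part of the particles that modify ribosomal RNA, read 11.49 and 11.36 at 0 h and 10.49 and 10.41 at 12 h, a change of -0.98 against 0.25, and Mrpl18 fell by 1.14 against 0.17. Ndufb7 of respiratory complex I read 9.18 and 9.27 at 0 h and 7.98 and 8.18 at 12 h, a change of -1.14 against 0.42. Cox6a2, a subunit form of heart and muscle, went the other way and was at least 3.48-fold higher. Cytosolic ribosomal proteins had 10 rises and 2 falls of 55 tested and a median of 0.09. Rpl22 rose by 0.86, and Rps27a, a fusion of ubiquitin and a ribosomal protein, fell by 1.09 where it rose by 0.60 without inhibitor. Translation factors had 7 rises (17.9%) and 9 falls (23.1%) of 39, near the shares over all genes, and their median of -0.02 was 0.02 when arrays were scaled to the same mean.

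Falls also outnumbered rises in the proteasome (14 against 0 of 40), splicing factors (25 against 2 of 45) and the actin and tubulin cytoskeleton (24 against 1 of 37). In control cells the same lists had 0 falls and 6 rises, 2 and 2, and 11 and 0. Sfrs6 (Srsf6), a splicing factor, read 10.63 and 10.49 at 0 h and 8.69 and 8.91 at 12 h, a change of -1.76 against -0.58. Tubb6, a β-tubulin, read 10.53 and 10.24 at 0 h and 8.72 and 8.62 at 12 h, a change of -1.72 against 0.16. Cfl1 (cofilin, which severs actin filaments) read 8.25 and 8.13 at 0 h and 5.89 and 5.70 at 12 h, a change of -2.39, and Pfn1 (profilin) fell by 0.99. The chaperone list had 6 rises and 7 falls of 35, near the shares over all genes. Xbp1, the transcription factor of the unfolded protein response, rose by 1.59 against -0.10, and Cct3 of the cytosolic folding chamber fell by 0.68. Glycolysis and hypoxia genes showed 4 rises (15.4%) and 9 falls (34.6%) of 26, against 21.1% and 23.3% over all genes. In control cells this list had 3 rises and 5 falls. The rise of P4ha1 and the fall of Hk1 with Akti1/2 were no longer called when single arrays were left out.

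Of 29 tested interferon-stimulated genes, 13 rose (44.8%) and 6 fell (20.7%) with Akti1/2, and 11 rose and 2 fell in control cells. The rise of Iigp2 and the falls of Ifit2, Bst2 and Ifitm3 with Akti1/2 were no longer called when single arrays were left out. Irf1 read 8.43 and 8.31 at 0 h and 10.30 and 10.27 at 12 h and rose by 1.91, Irf9 by 1.57, and Gbp3, a guanylate-binding protein, was at least 8.51-fold higher, whereas Ifitm2 fell by 1.27. Of 27 tested BCL2 family and death receptor genes, 7 rose (25.9%) and 8 fell (29.6%), shares near the 21.1% and 23.3% over all genes, and with arrays scaled to the same mean these were 9 and 7. Fas, the death receptor, was at least 8.73-fold higher, and Casp4, an inflammatory caspase, at least 9.69-fold higher. Bcl2, which protects from apoptosis, was at least 2.86-fold lower, against -1.81 on the log2 scale in control cells.

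Several of the largest changes belonged to no list. Col4a1, a collagen of basement membranes, was above background at 12 h only (9.70 and 9.56), at least 15.7-fold higher, with a log2 change of 0.03 in control cells. Its fitted log2 change with Akti1/2 was 4.47, and 2.60 without background correction. Among genes above background on all 4 arrays, the largest falls after Egr1 were Hba-a1, an α-globin gene with a near-identical copy (10.66 and 10.67 at 0 h and 6.80 and 7.31 at 12 h, a change of -3.61), and Dnajc6, an uncoating cofactor of clathrin vesicles (a change of -3.51). In control cells the changes were -1.43 for Hba-a1 and -4.07 for Dnajc6. Further falls were seen in Mmp2, a matrix protease (-2.82), the amino acid transporter Slc7a8 (-2.63), Jam4 (Igsf5; -2.61), Maob, a monoamine oxidase (-2.27), and Pitpna, a lipid transfer protein (-2.25). Of 4 tested cytotoxic effector genes 1 rose and 1, Nkg7, a granule protein of cytotoxic cells, fell. Nkg7 read 11.53 and 11.60 at 0 h and 9.0 and 8.94 at 12 h, a change of -2.59 against -0.33. Among the genes above background only at 0 h, Mt3, Insc, Atp1b1, Mxd3 and S100a4 were at least 5.07-, 4.95-, 4.51-, 3.78- and 3.74-fold lower. In all, 159 called genes were above background on both 12 h arrays and neither 0 h array, and 122 the other way.

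The 12 h response itself differed between Akti1/2-treated and control cells in 2404 genes (32.5%), 1203 with a higher value with Akti1/2 (16.3%) and 1201 with a lower one (16.2%), by the interaction term of the limma fit. Scaling the arrays to the same mean moved the median difference over all genes from -0.02 to 0.08 and the split to 1478 higher and 961 lower, from 50.0% to 60.6% higher, so the balance of the interaction depends on the scaling. Of the 3288 genes called with Akti1/2, 1810 had a called interaction. The largest positive fitted differences among these genes were in Col4a1 (4.43), Trib3 (3.94), Pik3ip1 (3.79), B230342M21Rik (3.52; N4bp2l1), Ypel3 (3.46) and Hbp1 (3.06), the last a repressor of cell cycle genes that read 7.78 and 7.98 at 0 h and 9.82 and 9.65 at 12 h and fell by 1.20 in control cells. The largest negative fitted differences were in Il5 (-3.46), Cd160 (-2.98), Il13 (-2.92), Tnfsf14 (-2.48), S100a4 (-2.45) and 2900062L11Rik (-2.29; Arxes2). Col4a1, Cd160 and S100a4 were not above background in 1 of the Akti1/2 groups, so their sizes and ranks are set in part by the background correction. Without it their differences were 2.59, -1.36 and -1.02, and that of Pik3ip1 was 2.00.

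Between 6 h and 12 h with Akti1/2, 1310 genes (17.7%) differed, 658 upward (8.90%) and 652 downward (8.82%). This count rests on the spread taken from all 16 arrays. It was 345 with only the 4 arrays compared, 710 with only the 8 Akti1/2-treated arrays, 711 without 6 h replicate 2, 598 without 12 h replicate 1, 710 without 12 h replicate 2 and 1510 without 6 h replicate 1, and the 6 h duplicates were the least alike of the 8 groups (median absolute log2 difference 0.212). Among genes above background on all 4 of these arrays, the largest rises after 6 h were in Ak3l1 (Ak4, a mitochondrial adenylate kinase), Ankrd37, Mreg, Eno2 (an enolase) and Pfkl (phosphofructokinase), by 2.42, 2.35, 2.09, 1.98 and 1.72. Ak3l1 and Pfkl had first gone below their 0 h level, with changes from 0 h of -1.26 and -1.18 at 6 h. Phlda1, Dnajc6, Zmat3, Cfl1 and Maob fell the most after 6 h, by 2.06, 2.00, 1.97, 1.90 and 1.80. Phlda1 and Zmat3, a p53 target, had been above their 0 h level at 2 h (1.71 and 1.94).

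**Figure D5:**
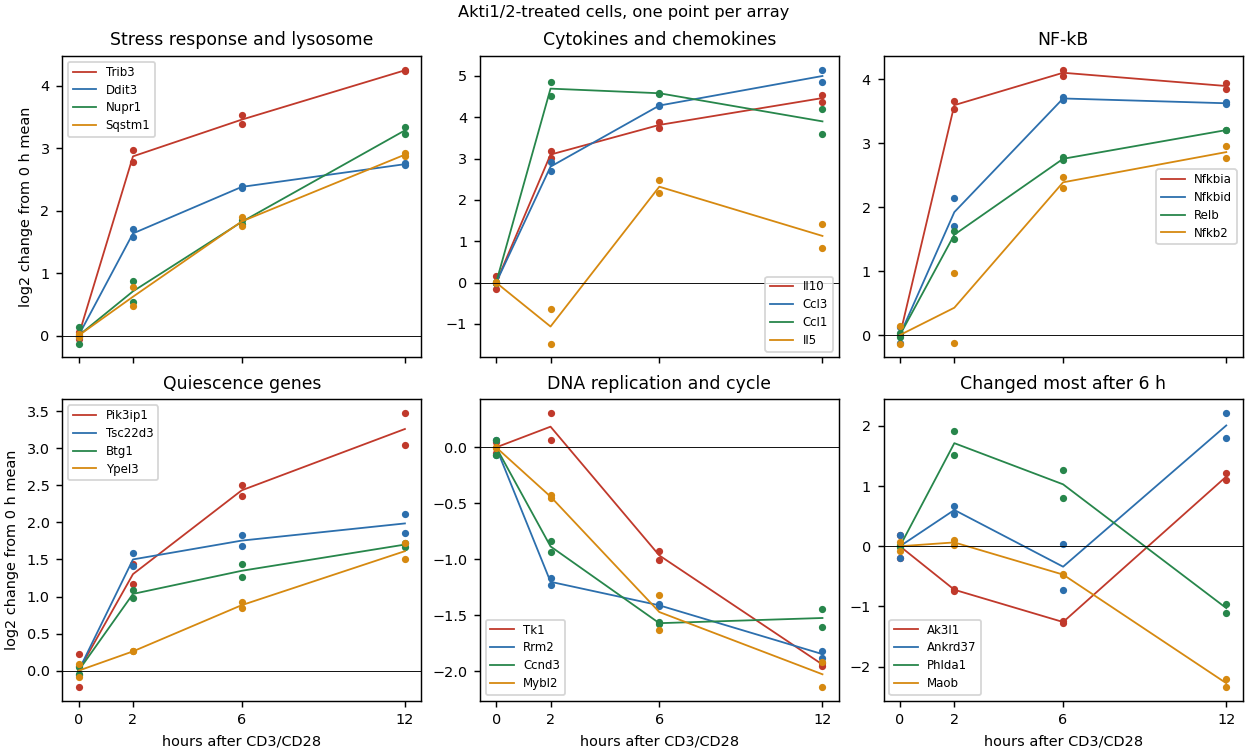
Log2 change from the 0 h mean of 24 genes in Akti1/2-treated cells at 0, 2, 6 and 12 h, 1 point per array and lines through the means of the 2 arrays. Trib3 and Nfkbia had risen by 2 h, Sqstm1 was highest at 12 h, as was Nupr1, which was not above background at 0 h, Il5 was highest at 6 h, Tk1, Rrm2 and Mybl2 were lowest at 12 h, and Ak3l1 and Phlda1 changed direction.

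The J5 score, which the study used to choose genes, divides a gene's difference in mean scaled intensity by the average absolute difference over all genes. It passed 20 in either direction for 155 of 18138 genes (0.855%), 83 higher (0.458%) and 72 lower (0.397%), and 128 of the 155 were also called by limma. The score favours bright genes. It was 20.1 for Trib3, 60.3 for Ccl3, 112 for Ccl4, -82.8 for Egr1 and 4.17 for Il5, while Col4a1 reached 7.48 and Relb 6.02.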

How the data were processed

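RNA of 16 samples of D10 cells was hybridized to Illumina mouse RefSeq-8 bead arrays, 8 on each of 2 chips. The authors deposited linear bead intensities as exported from the scanner software, 1 intensity per gene and array with a detection p-value, without normalization. Here limma 3.58.1 in R 4.3.3 corrected the background, quantile normalized and log2 transformed them (neqc on the 798 negative controls, offset 16). Genes with a detection p-value under 0.01 on at least 2 arrays were tested (7395). One linear model held the 8 groups of 2 arrays, and its empirical Bayes test used 8 residual degrees of freedom. Benjamini-Hochberg adjustment ran over all 7395 genes, with 0.05 as the threshold. The J5 score was computed on arrays scaled to their 95th percentile. Array number limits the precision.

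The genes named were the largest changes, bounds, interactions and changes after 6 h, the largest called members of each list, members whose role describes a list, every cytokine, chemokine, lineage factor and PI3K pathway gene, and the genes that the study followed by PCR. Some genes that this rule names are not reported here. The members and lists were chosen with earlier results of these data known. Symbols are those of the table, with RefSeq symbols in brackets (16590 of 18138 genes matched by Entrez ID), and 992 genes have no definition in the table. A second deposited control table, of 15 arrays, was not used. Alternatives changed the background correction, scaling, dim-gene filter, arrays in the fit, variance prior, replicate or chip block and the J5 threshold, and left out single arrays. Figures were drawn with matplotlib 3.10.9 in Python 3.11.15.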

Additional observations from a re-analysis of the deposited data

Results flagged for a closer look

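The change from 0 h to 12 h differed between cells with and without Akti1/2 in 2404 genes by the interaction term of the limma fit. The largest differences are listed for that reason. With Akti1/2 the change also spans a longer exposure to the inhibitor, which cannot be told apart from the stimulation. The log2 difference in response, with Akti1/2 minus without, was 4.43 for Col4a1, 3.94 for Trib3, 3.79 for Pik3ip1, 3.52 for B230342M21Rik (N4bp2l1), 3.46 for Ypel3 and 3.06 for Hbp1. It was -3.46 for Il5, -2.98 for Cd160, -2.92 for Il13, -2.48 for Tnfsf14, -2.45 for S100a4 and -2.29 for 2900062L11Rik (Arxes2). Col4a1, Cd160 and S100a4 were not above background in 1 of the Akti1/2 groups, so their values are no exact sizes, and without background correction they were 2.59, -1.36 and -1.02. Groups of 2 arrays are too small for a test of single outlying arrays.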

How the results depend on the processing

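The 3288 genes called between 0 h and 12 h with Akti1/2 became 2769 to 3370 under the other normalizations, filters, fits and priors, and 2396 to 2627 when 1 of the 4 arrays was left out. The 2404 called interactions became 2082 to 2753, and 1848 to 2067 with 1 array left out. Replicate numbers follow the chip in all groups but control 12 h, and nothing says that they mark a shared culture or day. The duplicates' differences correlated between groups at -0.30 to 0.26, and at 0.02 between the 2 groups compared, so the numbers were not taken as pairs. With the chip as a block 3304 genes were called in the response. With the replicate block 3274, 2386 and 1276 genes were called in the response, the interaction and the change after 6 h. The last count, 1310 in the fit reported, was 345 with only the arrays compared, 710 with only the 8 Akti1/2-treated arrays and 598 to 1510 with 1 array left out. The cause was not tested. The 155 genes past a J5 score of 20 became 390 at a threshold of 10 and 31 when the score was computed only over genes above background, which raises the average difference it divides by, and 139 to 151 with 1 array left out. With arrays scaled to the same mean, the balance of higher and lower calls turned from 1563 and 1725 to 1724 and 1504 in the response, as did that of the BCL2 list and the median of translation factors. No called change of a named gene turned its sign in the alternatives run. Lower bounds hold on the background-corrected scale, and the changes of Il3 and Col4a1 were smaller without it (4.37 and 2.60). Of 368 named genes 337 were called, and 274 of these kept the call in all alternatives run.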
